A study of Homo sapiens with 9 samples.

Results

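The genes described are 35 that serve protein folding, stress sensing and protein disposal in the endoplasmic reticulum (ER). They were taken by gene name, from a list made with earlier results of these data known, and all 35 were found among the 58174 genes of the deposited table. RNA from 9 libraries labelled HepG2, a human liver tumour line, was sequenced to compare 3 groups of 3 libraries. The groups were cells overexpressing NFE2L1, cells overexpressing the form labelled NFE2L1DC, and control cells, whose genotype label is WT and which the protocol names after the pLVX lentiviral vector. NFE2L1, a cap'n'collar transcription factor, is made at the ER membrane. In the protocol a delta stands before the C of NFE2L1DC, as is usual for a deletion of the C-terminus; its extent, the promoter that drives the transgenes and whether a line is 1 clone were not stated in the labels. All groups were grown in high-glucose DMEM with fetal serum and lysed in Trizol. The series title names an activity of NFE2L1 other than transcription as the question.

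Proteins that enter the secretory pathway pass the SEC61 channel into the ER, where chaperones led by HSPA5 (BiP) and the lectins calnexin and calreticulin hold them while disulfide isomerases form and shuffle their disulfide bonds. The membrane sensors ATF6, IRE1 (ERN1) and PERK (EIF2AK3) respond when unfolded proteins build up and start the unfolded protein response, which raises chaperone and disposal genes partly through the factor XBP1. Proteins that fail to fold are recognised, drawn back across the membrane and degraded by the proteasome, a route called ER-associated degradation (ERAD). NFE2L1 itself is known to be a client of this route.

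Several of these genes share a promoter element, and its sites are shown because such elements are known to be bound by ATF6 and XBP1 in chaperone promoters. The ER stress response element was searched as CCAAT and CCACG with 9 bases of any kind between them, on both strands, from 250 bases before to 50 bases after the start of each gene, in RefSeq promoters of GRCh38.p14. Of the 31 members with a promoter in that table, 7 held it (22.6%), against 22 of all 27305 promoters (0.0806%). The element is known from chaperone promoters and chaperones are among the members, so this difference is not a result of these data. The sites follow, each written along its own strand with the fixed letters in capitals. PDIA3, DERL1, DERL3 and UFD1 had no promoter entry.
HSPA5 chr9:125241391-125241409 (minus strand): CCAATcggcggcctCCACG
HSP90B1 chr12:103930216-103930234 (plus strand): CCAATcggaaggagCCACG
HSP90B1 chr12:103930321-103930339 (minus strand): CCAATcgcgccgcaCCACG
CRELD2 chr22:49918554-49918572 (minus strand): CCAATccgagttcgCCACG
CALR chr19:12938384-12938402 (minus strand): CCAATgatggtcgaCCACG
CANX chr5:179698778-179698796 (plus strand): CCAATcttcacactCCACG
ERO1B chr1:236282183-236282201 (plus strand): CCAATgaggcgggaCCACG
XBP1 chr22:28800603-28800621 (minus strand): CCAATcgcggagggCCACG

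HSP90B1 had a site on each strand, and the sites lay within 250 bases before the gene start in all 7 genes. The other motifs searched were at or near the share in all promoters. TGACNNNGC, the core of the antioxidant response element that cap'n'collar factors are known to bind, was in 4 members (12.9%), against 13.6% of all promoters. Those 4 were CALR, CRELD2, ERN1 and SDF2L1. TGACGTG was in 1 member, HYOU1 (3.23%, against 2.0% of all promoters), and TGATGNAA in 1 member, HERPUD1 (3.23%, against 3.67%). A match is a run of letters and not a measured site of binding. The 250 bases before the start of SELENOS, OS9 and HSPA5 are shown because the results turn on these genes. The capitals in HSPA5 mark the fixed letters of its element, and none of the 4 motifs was found in the windows of SELENOS and OS9.
SELENOS chr15:101277486-101277735 (minus strand): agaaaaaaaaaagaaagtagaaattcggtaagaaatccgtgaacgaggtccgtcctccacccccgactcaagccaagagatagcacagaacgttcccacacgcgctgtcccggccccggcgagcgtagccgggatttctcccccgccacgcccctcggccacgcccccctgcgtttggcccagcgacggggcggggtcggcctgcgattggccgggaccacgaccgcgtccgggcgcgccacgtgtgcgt
OS9 chr12:57693882-57694131 (plus strand): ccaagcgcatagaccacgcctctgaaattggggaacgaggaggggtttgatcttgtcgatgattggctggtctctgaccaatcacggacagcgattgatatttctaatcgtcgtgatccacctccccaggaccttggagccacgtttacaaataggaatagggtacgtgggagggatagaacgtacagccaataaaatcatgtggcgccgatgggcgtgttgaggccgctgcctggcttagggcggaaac
HSPA5 chr9:125241344-125241593 (minus strand): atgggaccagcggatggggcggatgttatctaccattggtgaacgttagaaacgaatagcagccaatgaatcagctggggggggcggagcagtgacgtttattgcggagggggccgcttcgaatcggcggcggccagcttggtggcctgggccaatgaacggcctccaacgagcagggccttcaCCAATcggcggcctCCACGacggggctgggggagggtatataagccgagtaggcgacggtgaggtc

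Some facts of the libraries bear on every value. Abundance is in TPM, a transcript abundance corrected for length and scaled by the authors to a fixed total per library. The table holds no counts, so the depth behind each value is unknown. NFE2L1 was at 207, 181 and 354 TPM in NFE2L1 libraries and at 445, 427 and 472 TPM in NFE2L1DC libraries, against 104, 81.7 and 64.0 TPM in controls, so the groups matched their labels in that gene. The label HepG2 was not borne out by liver markers. ALB, APOB, TTR, FGB and SERPINA1 were at 0 in all 9 libraries, and the sum of 8 hepatocyte-lineage markers was 0.031 to 0.285 TPM in NFE2L1, 0.058 to 0.227 TPM in NFE2L1DC and 0.045 to 0.114 TPM in control libraries. KRT7, a marker of bile duct and other epithelia, was abundant, while KRT19, the other bile duct marker listed, was at 0.0 to 0.351 TPM. The sums of these 2 markers, nearly all KRT7, were 886 to 958 TPM in NFE2L1, 762 to 882 TPM in NFE2L1DC and 488 to 586 TPM in control libraries. The sum of 3 fibroblast markers was 89.2 to 104 TPM in NFE2L1, 85.3 to 102 TPM in NFE2L1DC and 125 to 142 TPM in control libraries, while leukocyte markers were at 0. Mitochondrially encoded genes took 15.27% to 17.72% of the TPM in NFE2L1, 17.04% to 17.72% in NFE2L1DC and 18.33% to 18.92% in control libraries. The part of these differences in the results was not tested.

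Control replicate 3 stood apart from the other controls. It held 23396 genes above 0, against 22355 and 22072 in control replicates 1 and 2, and its median-of-ratios size factor was 1.086, against 0.889 and 0.877. The overexpressing libraries held 21809 to 22778 genes above 0 and had size factors of 0.982 to 1.082. By size factor, control replicates 1 and 2 were thus the ones apart from all others. The all-gene median log2 fold change for NFE2L1 was 0.237 without control replicate 3 and -0.006 against it alone. Which controls are typical was not tested. Counts of called genes against control are therefore given with and without it.

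All 35 members were expressed, and all passed the filter of 1 TPM in at least 3 libraries. Their medians over the 9 libraries spanned a wide range of TPM. CALR (calreticulin) was the highest at 1862 TPM, followed by P4HB (protein disulfide isomerase) at 661 TPM, HSPA5 at 534 TPM, PDIA6 at 398 TPM and CANX (calnexin) at 366 TPM. At the low end were ERN1 at 2.66 TPM, DNAJB9 at 2.45 TPM, EDEM3 at 1.93 TPM and ERO1B at 1.30 TPM. Summed over the 35 genes, the level was 6888, 6810 and 6713 TPM in NFE2L1 libraries and 6240, 5985 and 6317 TPM in NFE2L1DC libraries, against 6794, 6677 and 6894 TPM in controls. The NFE2L1DC sums were the lowest of the 9, and those of NFE2L1 and control libraries overlapped; CALR was the largest single part of each sum. In bulk RNA, fewer cells expressing a gene and less of its RNA per cell cannot be told apart.

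**Figure D1:**
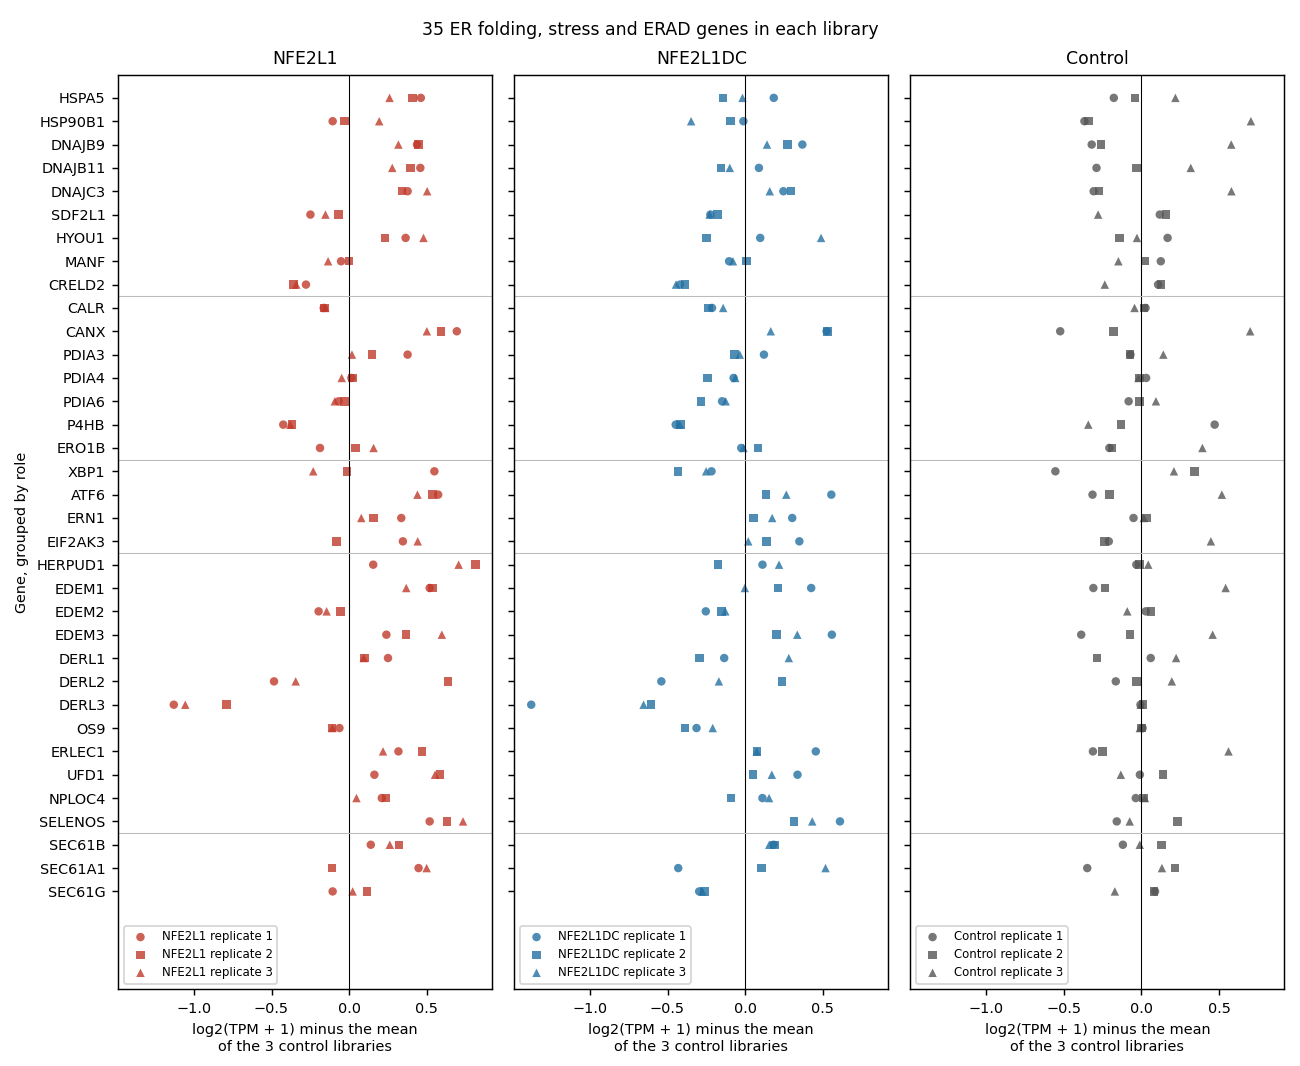
Each point is 1 library's log2(TPM + 1) minus the mean of the 3 control libraries, for the 35 genes grouped by role, with NFE2L1, NFE2L1DC and control libraries in separate panels and a symbol for each replicate. DERL3 lies left of 0 in all 6 overexpressing libraries, SELENOS lies right of 0 in all 6, and control replicate 3 lies apart from the other controls for genes such as CANX and HSP90B1.

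With all 3 controls in the fit, few of these genes were called changed in NFE2L1 cells. Against control, SELENOS rose 1.55-fold and DERL3 fell to 0.445 of the control mean, both parts of the ERAD machinery at the ER membrane. So 1 of 35 members was higher, where 7.83% of all 14118 genes tested were, and 1 was lower, where 2.57% were (limma, a linear model that shares variance estimates across genes, on log2(TPM + 1), adjusted p under 0.05 over all genes). At an unadjusted p under 0.05 the count was 12 members (34.3%), against 30.4% of all genes. The median log2 fold change of the members was 0.18, beside 0.17 over all genes, and 24 of 35 were positive (68.6%), beside 68.7% of all genes. These counts and medians were near those of all genes. Without control replicate 3, 12 members were called higher, where 30.1% of all genes were, and 5 lower, where 5.69% were. A missing call therefore does not show a lack of change.

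In NFE2L1DC cells, OS9 fell to 0.81 of the control mean, and with all 3 controls it was the member called against control. No member passed the test upwards, where 2.06% of all genes did, and 1 passed downwards, where 1.54% did; 8 members had an unadjusted p under 0.05 in limma (22.9%), against 21.7% of all genes. The members' median log2 fold change was 0.007, beside 0.118 over all genes, and 19 were positive (54.3%), beside 65.5% of all genes. Both overexpressing lines were set against the same 3 control libraries. Median-of-ratios scaling moved the median of all genes to 0.019 for NFE2L1 and to 0.025 for NFE2L1DC. Under it the members' median was 0.002 for NFE2L1, with 18 members positive (51.4%, against 52.2% of all genes). For NFE2L1DC the members' median was -0.104, with 13 positive (37.1%, against 53.5% of all genes).

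**Figure D2:**
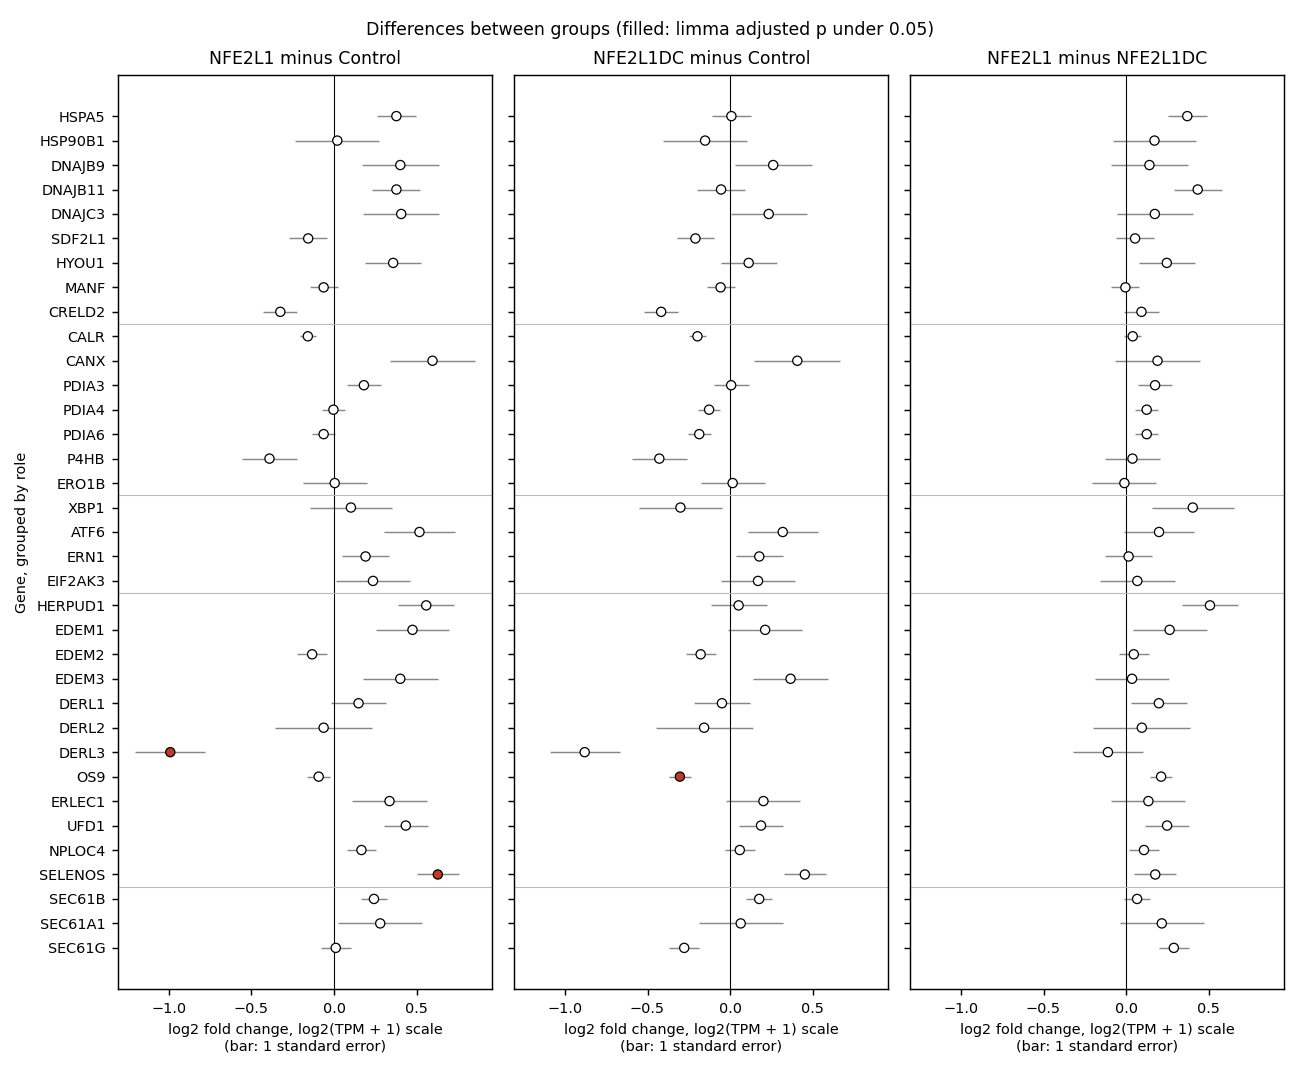
Each point is a gene's log2 fold change on the log2(TPM + 1) scale, with 1 standard error, for NFE2L1 minus control, NFE2L1DC minus control and NFE2L1 minus NFE2L1DC. The filled points are SELENOS and DERL3 in the first panel and OS9 in the second; the points of the third panel lie mostly to the right of 0.

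SELENOS (ENSG00000131871, chr15:101270817-101277500, minus strand) encodes a selenoprotein of the ER membrane that helps bring the p97 ATPase to the disposal channel. It was at 45.8, 49.6 and 53.3 TPM in NFE2L1 libraries and at 48.9, 39.7 and 43.1 TPM in NFE2L1DC libraries, against 28.3, 37.4 and 30.1 TPM in controls. All 6 overexpressing libraries lay above all 3 controls. The log2 fold change was 0.63 ± 0.13 (SE, adjusted p = 0.0176) for NFE2L1 and 0.45 ± 0.13 (adjusted p = 0.088) for NFE2L1DC, so it passed for NFE2L1 and missed for NFE2L1DC. The NFE2L1 call held in 14 of 18 alternatives, with log2 fold changes of 0.45 to 0.74. It was lost with median-of-ratios scaling (0.45, adjusted p = 0.0973), and without control replicate 1 (0.55, 0.064), NFE2L1 replicate 2 (0.62, 0.0627) or NFE2L1 replicate 3 (0.57, 0.0742). Without control replicate 3 the log2 fold change was 0.59 (adjusted p = 0.0133). Other filters, the replicate block, no variance trend and leaving out an NFE2L1DC library cannot change the NFE2L1 fold change. Those alternatives bear only on its error and adjusted p.

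DERL3 (ENSG00000099958, chr22:23834503-23839128, minus strand) encodes derlin-3, a membrane protein of the ERAD channel family. Its level was 3.17, 4.28 and 3.39 TPM in NFE2L1 libraries and 2.51, 4.99 and 4.8 TPM in NFE2L1DC libraries, against 8.09, 8.19 and 8.09 TPM in controls. All 6 overexpressing libraries were below the controls, which were nearly equal to each other. The log2 fold change was -0.99 ± 0.21 (adjusted p = 0.0214) for NFE2L1 and -0.88 ± 0.21 (adjusted p = 0.0558) for NFE2L1DC. For NFE2L1 the call held in 13 of 18 alternatives, several of which cannot change the fold change, with adjusted p of 0.0065 to 0.0815. It was lost with no filter (0.0554) and without control replicate 1 (0.0669), control replicate 2 (0.0761), NFE2L1 replicate 1 (0.0815) or NFE2L1 replicate 3 (0.0788). For NFE2L1DC the change was called without control replicate 3 (-0.88, adjusted p = 0.0292). DERL3 overlaps SMARCB1 on the other strand, at 78.2 to 108 TPM, which was not called in either line (log2 fold change 0.02 for NFE2L1 and 0.19 for NFE2L1DC). Without a stated strand, reads of overlapping genes cannot be told apart. The same limit holds for other members with such overlaps, among them DNAJB9, ERO1B and ERLEC1. Their neighbours THAP5, GPR137B and ASB3 were at 1.55 to 4.20, 5.61 to 8.64 and 1.90 to 19.8 TPM in that order. The other derlins did not share the pattern: DERL1 had a log2 fold change of 0.15 for NFE2L1 and -0.05 for NFE2L1DC, and DERL2 had -0.06 and -0.16, none of them called.

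OS9 (ENSG00000135506, chr12:57693955-57721557, plus strand) encodes a lectin that recognises trimmed sugars on proteins bound for disposal. It stood at 152, 147 and 147 TPM in NFE2L1 libraries and at 127, 121 and 137 TPM in NFE2L1DC libraries, against 160, 159 and 158 TPM in controls. The 3 groups did not overlap, with NFE2L1 between the others. The log2 fold change was -0.30 ± 0.07 (adjusted p = 0.0442) for NFE2L1DC and -0.09 ± 0.07 (adjusted p = 0.366) for NFE2L1. The NFE2L1DC call held in only 5 of 18 alternatives, with log2 fold changes of -0.26 to -0.42 and adjusted p of 0.0201 to 0.148. Without control replicate 1 its adjusted p was 0.117, without control replicate 2 0.148, and without any 1 of the overexpressing libraries between 0.0776 and 0.141. ERLEC1, the related lectin, was at 24.7, 27.6 and 23.0 TPM in NFE2L1, 27.3, 20.8 and 20.7 TPM in NFE2L1DC and 15.6, 16.4 and 29.5 TPM in control libraries, with control replicate 3 the highest of the 9.

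**Figure D3:**
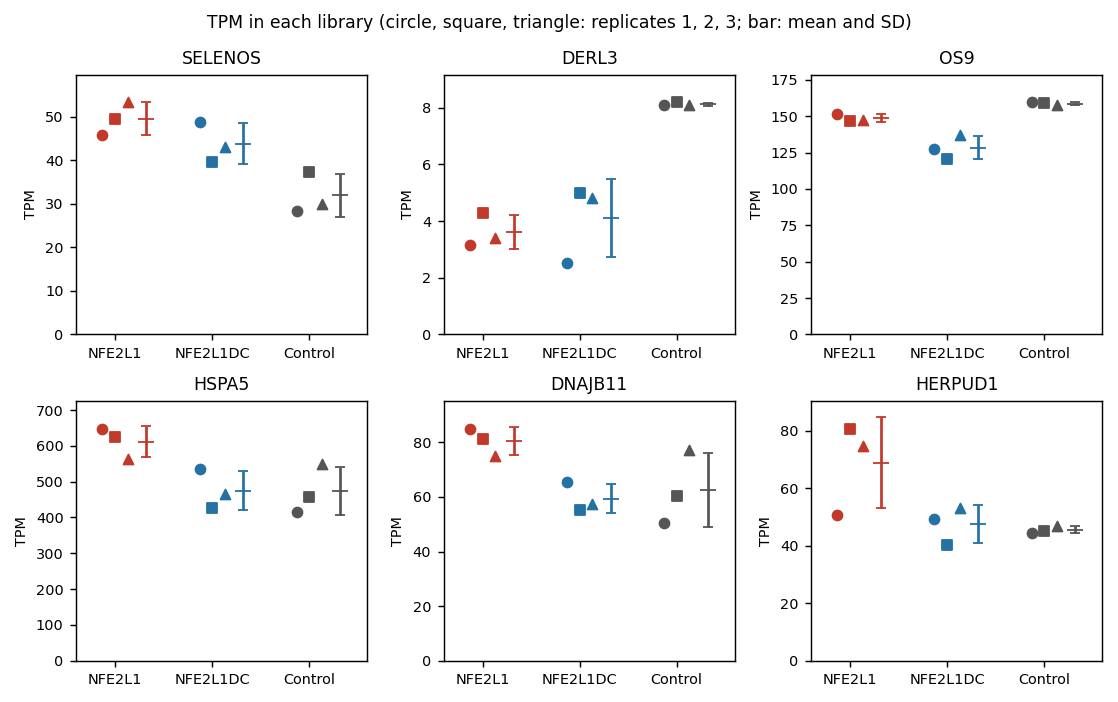
TPM of 6 genes in each library, with NFE2L1 left, NFE2L1DC in the middle and control on the right; symbols are replicates and the bars are the mean and SD of 3 libraries. SELENOS is above and DERL3 below the controls in all 6 overexpressing libraries, OS9 is lowest in NFE2L1DC, and HSPA5 is highest in the 3 NFE2L1 libraries.

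HSPA5 (ENSG00000044574, chr9:125234853-125241330, minus strand) is the central chaperone of the ER lumen and the usual readout of ER stress. It was at 648, 625 and 564 TPM in NFE2L1 libraries and at 534, 426 and 465 TPM in NFE2L1DC libraries, against 416, 457 and 548 TPM in controls. The NFE2L1 libraries were above all others, with replicate 3 close to control replicate 3, and the NFE2L1DC and control libraries overlapped. The log2 fold change was 0.38 ± 0.12 for NFE2L1 (adjusted p = 0.0703) and 0.01 ± 0.12 for NFE2L1DC (adjusted p = 0.975). Without control replicate 3 the NFE2L1 difference passed (0.49, adjusted p = 0.00928) and that for NFE2L1DC did not (0.12, 0.444).

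Among the 9 lumenal chaperones and cofactors, none was called in either line with all libraries, and the median log2 fold change was 0.36 for NFE2L1 and -0.06 for NFE2L1DC. In the limma fit, 3 of these 9, HSPA5, DNAJB11 and CRELD2, had an unadjusted p under 0.05 for NFE2L1, and CRELD2 did for NFE2L1DC. Of all genes, 30.4% did for NFE2L1 and 21.7% for NFE2L1DC. DNAJB11, a J-domain cofactor of HSPA5, averaged 80.4 ± 5.12 TPM in NFE2L1 and 59.4 ± 5.42 TPM in NFE2L1DC cells, against 62.5 ± 13.5 TPM in controls (SD, n = 3 libraries each). HSP90B1 (GRP94, the ER form of HSP90) was at 175, 184 and 215 TPM in NFE2L1 and 187, 176 and 148 TPM in NFE2L1DC libraries, against 146, 149 and 307 TPM in controls. Control replicate 3 was thus the highest of the 9 and the other controls among the lowest, and the log2 fold changes were 0.02 for NFE2L1 and -0.15 for NFE2L1DC. The J-domain genes DNAJB9 and DNAJC3 had the same shape at low level: DNAJB9 was 2.45 to 2.78 TPM in NFE2L1 and 2.05 to 2.57 TPM in NFE2L1DC libraries, against 1.22, 1.31 and 3.14 TPM in controls. DNAJC3 was 3.80 to 4.38 TPM in NFE2L1 and 3.24 to 3.66 TPM in NFE2L1DC libraries, against 2.07, 2.14 and 4.68 TPM in controls.

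The remaining chaperone-linked genes went both ways. HYOU1, an exchange factor for HSPA5, averaged 197 ± 17.1 TPM in NFE2L1 and 170 ± 43.6 TPM in NFE2L1DC, against 154 ± 17.1 TPM in control libraries. CRELD2, a secreted ER stress protein, was at 67.1, 63.5 and 64.2 TPM in NFE2L1 and at 60.8, 62.2 and 59.7 TPM in NFE2L1DC libraries, against 88.0, 89.2 and 69.2 TPM in controls. All 6 overexpressing libraries were below the controls, though control replicate 3 lay close to them. Its log2 fold change was -0.33 for NFE2L1 (adjusted p = 0.0735, and 0.00295 without control replicate 3) and -0.42 for NFE2L1DC (adjusted p = 0.0599, and 0.00391 without that library). SDF2L1, which assists HSPA5 and DNAJB11, was 124 to 140 TPM in NFE2L1 and 125 to 130 TPM in NFE2L1DC libraries, against 160, 165 and 121 TPM in controls. MANF, a secreted stress-induced factor, averaged 146 TPM in NFE2L1, 147 TPM in NFE2L1DC and 153 TPM in control libraries.

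None of the 7 lectin chaperones and disulfide enzymes was called in either line with all libraries, with median log2 fold changes of -0.004 for NFE2L1 and -0.13 for NFE2L1DC. At an unadjusted p under 0.05 in limma, CALR, CANX and P4HB were counted for NFE2L1, where 30.4% of all genes were. For NFE2L1DC, CALR, P4HB and PDIA6 were counted, where 21.7% of all genes were. CALR, the soluble lectin, was at 1851, 1858 and 1862 TPM in NFE2L1 libraries and 1788, 1758 and 1879 TPM in NFE2L1DC libraries, against 2113, 2097 and 2012 TPM in controls. The groups did not overlap with control, yet the log2 fold changes were small, at -0.16 for NFE2L1 (adjusted p = 0.0722) and -0.20 for NFE2L1DC (adjusted p = 0.0633). CANX, its membrane-bound counterpart, was at 412, 384 and 360 TPM in NFE2L1 and at 366, 367 and 285 TPM in NFE2L1DC libraries, against 177, 225 and 414 TPM in controls. Control replicate 3 was above all other libraries and its fellow controls below all of them, and the log2 fold changes of 0.59 ± 0.26 for NFE2L1 and 0.41 ± 0.26 for NFE2L1DC were not called.

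P4HB, the main disulfide isomerase, was at 640, 665 and 661 TPM in NFE2L1 libraries and 630, 644 and 642 TPM in NFE2L1DC libraries, against 1193, 785 and 679 TPM in controls. All controls were above all overexpressing libraries, by little in replicate 3 and widely in replicate 1, and the log2 fold changes of -0.39 ± 0.17 for NFE2L1 and -0.43 ± 0.17 for NFE2L1DC were not called. PDIA3, PDIA4 and PDIA6, isomerases of the same family, had log2 fold changes of 0.18, -0.00 and -0.06 for NFE2L1 and 0.01, -0.13 and -0.19 for NFE2L1DC. PDIA3 has the pseudogene copies PDIA3P1 and PDIA3P2, at 1.60 to 10.9 TPM, with which reads could be shared. ERO1B, the oxidase that recharges the isomerases, was at 1.04 to 1.59 TPM in NFE2L1 and 1.28 to 1.45 TPM in NFE2L1DC, against 1.01 to 2.05 TPM in control libraries.

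The sensors of the unfolded protein response were not called in either line with all libraries. ATF6, which is cut in the Golgi to release a transcription factor, was at 19.0, 18.5 and 17.3 TPM in NFE2L1 libraries and 18.8, 13.8 and 15.2 TPM in NFE2L1DC libraries, against 9.83, 10.7 and 18.3 TPM in controls. Control replicate 3 lay among the overexpressing libraries and the other controls below them all. The log2 fold changes were 0.52 ± 0.21 for NFE2L1 (adjusted p = 0.14) and 0.32 ± 0.21 for NFE2L1DC (adjusted p = 0.404). Without control replicate 3 they were 0.77 for NFE2L1 (adjusted p = 0.0041) and 0.58 for NFE2L1DC (adjusted p = 0.0194). ERN1, the kinase and nuclease that splices XBP1 mRNA, was at 3.38, 2.87 and 2.66 TPM in NFE2L1 and at 3.28, 2.6 and 2.91 TPM in NFE2L1DC libraries, against 2.35, 2.55 and 2.51 TPM in controls. The controls were the lowest 3 of the 9, by a margin that is small beside the spread of the other groups, and the log2 fold changes were 0.19 for NFE2L1 and 0.18 for NFE2L1DC. EIF2AK3, the kinase that slows translation under ER stress, was at 5.44, 3.79 and 5.89 TPM in NFE2L1 and at 5.46, 4.58 and 4.14 TPM in NFE2L1DC libraries, against 3.39, 3.30 and 5.92 TPM in controls. Its groups overlapped, again with control replicate 3 the highest library.

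XBP1, the factor made active by splicing, varied more within groups than between them. It was at 241, 163 and 140 TPM in NFE2L1 libraries and 141, 121 and 138 TPM in NFE2L1DC libraries, against 112, 209 and 190 TPM in controls. NFE2L1 replicate 1 was the highest library and control replicate 1 the lowest, and the log2 fold changes were 0.10 ± 0.25 for NFE2L1 and -0.30 ± 0.25 for NFE2L1DC. Gene-level TPM does not separate spliced from unspliced XBP1, nor does it measure cleavage of ATF6 or kinase activity, so the state of the sensors is not given by these values.

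The 12 ERAD genes held all 3 members called with all libraries, SELENOS, DERL3 and OS9. HERPUD1, a membrane organiser of the disposal complex and a known stress-induced gene, was at 50.8, 80.7 and 74.9 TPM in NFE2L1 libraries and 49.3, 40.2 and 53.2 TPM in NFE2L1DC libraries, against 44.5, 45.2 and 47.0 TPM in controls. NFE2L1 replicates 2 and 3 were far above all others and replicate 1 was level with NFE2L1DC. The log2 fold change was 0.56 ± 0.17 (adjusted p = 0.0661) for NFE2L1 and 0.05 ± 0.17 for NFE2L1DC. UFD1 and NPLOC4 pair as adaptors of the p97 ATPase. UFD1 averaged 81.5 ± 12.8 TPM in NFE2L1 and 68.1 ± 6.9 TPM in NFE2L1DC, against 59.7 ± 5.77 TPM in control libraries, and its adjusted p for NFE2L1 was 0.0685. NPLOC4 averaged 97.5 ± 6.92 TPM in NFE2L1 and 90.6 ± 8.05 TPM in NFE2L1DC libraries, against 86.8 ± 1.9 TPM in controls.

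The mannose-trimming EDEM proteins, which mark glycoproteins for disposal, had no member called with all libraries. EDEM1 was at 12.8, 13 and 11.5 TPM in NFE2L1 and 12.0, 10.2 and 8.65 TPM in NFE2L1DC, against 6.81, 7.22 and 13.1 TPM in control libraries. EDEM3 was at 1.75, 1.99 and 2.52 TPM in NFE2L1 and at 2.42, 1.68 and 1.93 TPM in NFE2L1DC libraries, against 0.779, 1.21 and 2.20 TPM in controls. In both genes control replicates 1 and 2 were the lowest libraries and control replicate 3 was not. EDEM2 went the other way, averaging 32.2 ± 1.64 TPM in NFE2L1 and 31.2 ± 1.46 TPM in NFE2L1DC, against 35.4 ± 1.99 TPM in controls.

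The SEC61 channel subunits were not called in either line with all libraries. SEC61B averaged 306 ± 19.6 TPM in NFE2L1 and 292 ± 3.68 TPM in NFE2L1DC, against 259 ± 22.5 TPM in control libraries, with no overlap of either line with control (log2 fold change 0.24 for NFE2L1, adjusted p = 0.0811, and 0.17 for NFE2L1DC, adjusted p = 0.236). With the correction for GC and length SEC61B passed in both lines (0.38 for NFE2L1, adjusted p = 0.0157, and 0.33 for NFE2L1DC, adjusted p = 0.0479). SEC61G was at 154, 180 and 168 TPM in NFE2L1 and 135, 138 and 137 TPM in NFE2L1DC, against 176, 176 and 147 TPM in control libraries, and the NFE2L1DC libraries were the lowest 3. It was called lower in NFE2L1DC without control replicate 3 (-0.36, adjusted p = 0.014). SEC61A1, the pore itself, was at 277, 188 and 287 TPM in NFE2L1 and at 150, 218 and 290 TPM in NFE2L1DC libraries, against 159, 236 and 222 TPM in controls, and all groups overlapped. SEC61A1 overlaps RUVBL1 on the other strand, at 163 to 249 TPM, which rose in both lines (log2 fold change 0.45 for NFE2L1, adjusted p = 0.00902, and 0.40 for NFE2L1DC, adjusted p = 0.0298).

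Libraries that did not overlap between groups were counted as a description, since an exact permutation test of 3 against 3 cannot go below p = 0.1. For NFE2L1 against control, 8 members lay wholly above (22.9%, against 22.6% of all genes) and 5 wholly below (14.3%, against 9.53%). The 8 were ERN1, HERPUD1, HSPA5, HYOU1, NPLOC4, SEC61B, SELENOS and UFD1, and the 5 were CALR, CRELD2, DERL3, OS9 and P4HB. For NFE2L1DC against control, ERN1, SEC61B and SELENOS lay wholly above, 3 members (8.57%) against 13.7% of all genes. Wholly below were 9 members (25.7%), against 8.98% of all genes, namely CALR, CRELD2, DERL3, EDEM2, OS9, P4HB, PDIA4, PDIA6 and SEC61G.

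The side of the overexpressing libraries on which control replicate 3 lay differed between members. Control replicates 1 and 2 lay below all 6 overexpressing libraries in 12 members (34.3%, against 36.4% of all genes), and in 9 of these control replicate 3 was not below. Its value was above all 6 in DNAJB9, DNAJC3, CANX, EIF2AK3, EDEM1 and ERLEC1, inside their range in PDIA3, ATF6 and EDEM3, and below in ERN1, SELENOS and SEC61B. Control replicates 1 and 2 lay above all 6 in 8 members (22.9%, against 9.24% of all genes), and control replicate 3 was above too in 5, CALR, CRELD2, DERL3, OS9 and P4HB. Of 5137 genes with control replicates 1 and 2 below all 6, control replicate 3 lay inside in 2716, against 3 of the 12 members. Of 1304 genes with them above, it lay inside in 461, against 1 of the 8 members. Across the highest and lowest library of a group, 6 members differed more than 1.5-fold in NFE2L1, 5 in NFE2L1DC and 13 in control libraries. The share of all genes was not counted for that spread, so it is not shown to be particular to the members.

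Without control replicate 3, limma called 12 members higher (30.1% of all genes) and 5 lower (5.69% of all genes) in NFE2L1 cells. The 12 were HSPA5, HSP90B1, DNAJB9, DNAJB11, DNAJC3, CANX, ATF6, HERPUD1, EDEM1, EDEM3, ERLEC1 and SELENOS, and the 5 were SDF2L1, CRELD2, CALR, P4HB and DERL3. In NFE2L1DC cells it called 7 higher (20.1% of all genes) and 7 lower (4.34% of all genes). The 7 higher were DNAJB9, DNAJC3, CANX, ATF6, EDEM1, EDEM3 and ERLEC1, and the 7 lower were SDF2L1, CRELD2, CALR, P4HB, DERL3, OS9 and SEC61G. With control replicate 3 as the only control, a choice made after the data were seen, the spread comes from the other 2 groups and 1 library stands for the controls, so fewer calls can be made: no member was called in either line, DERL3 included, at an unchanged log2 fold change of -0.99 for NFE2L1. The values without that library and against it alone are therefore compared by size. CANX shows the size of this: its log2 fold change for NFE2L1 was 0.94 without control replicate 3 and -0.11 against that library alone. HSP90B1 gave 0.37 without and -0.69 against that library alone, while DERL3 gave -0.99 in both cases and SELENOS gave 0.59 and 0.70.

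**Figure D4:**
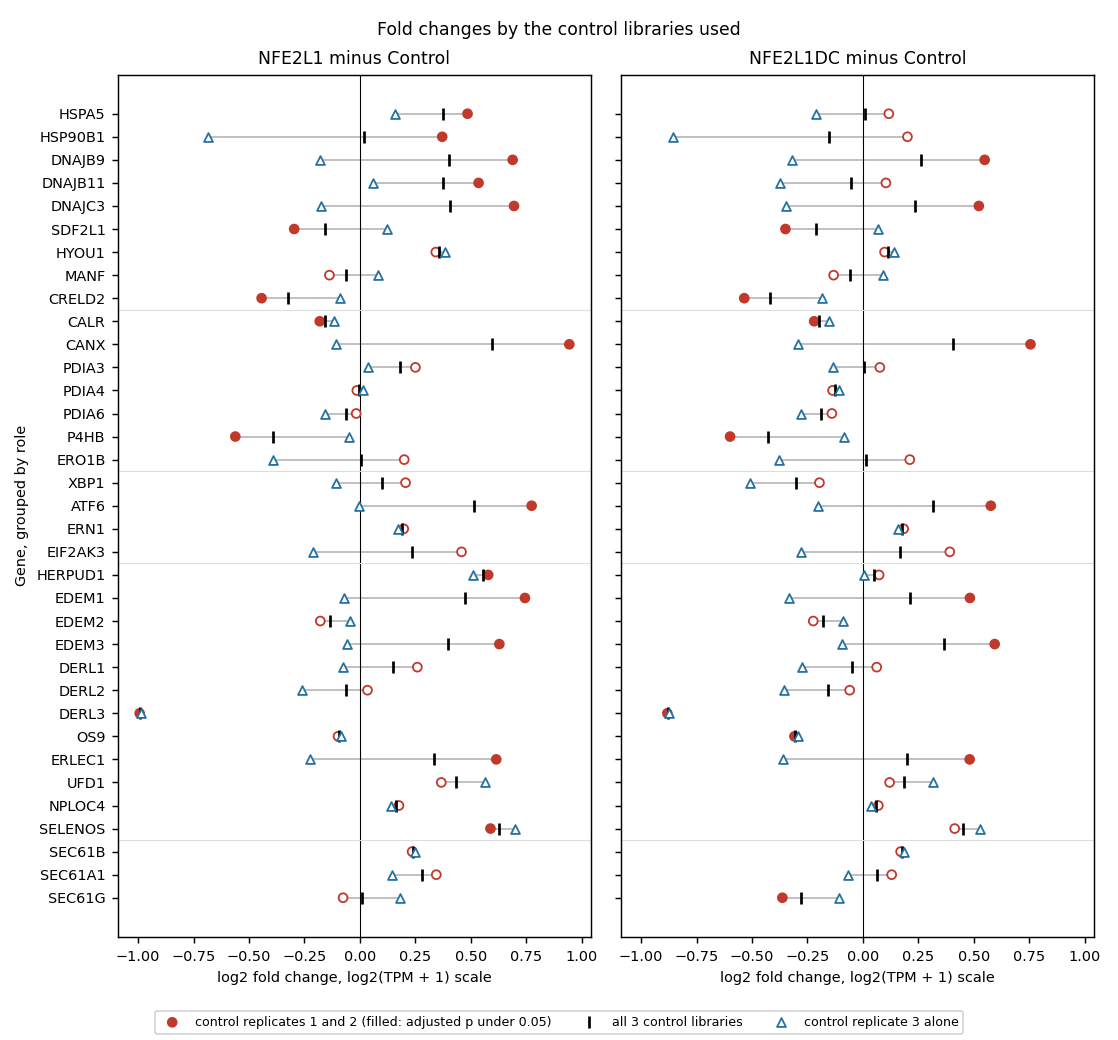
Log2 fold changes on the log2(TPM + 1) scale for NFE2L1 minus control (left) and NFE2L1DC minus control (right), computed with control replicates 1 and 2, with all 3 controls and with control replicate 3 alone. For CANX the NFE2L1 value is 0.94 with the first pair and -0.11 with the third library, and the points of DERL3 and OS9 nearly coincide.

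The difference between control replicate 3 and the other controls went with base composition. Control replicate 3 minus the mean of control replicates 1 and 2, in log2, was set against the GC content of the longest transcript. Spearman rho was -0.699 over the 35 members and -0.611 over 14085 genes, all from the same 3 libraries. Of 17 members under 46% GC, 16 were higher in control replicate 3, with a median difference of 0.67. Of 18 members at 46% GC or more, 5 were higher, with a median of -0.04. The log2 fold changes against control also followed GC, over the members and over all genes. For NFE2L1 rho was -0.446 over the members and -0.39 over all genes, and for NFE2L1DC -0.384 and -0.321. Between the 2 lines the values were -0.294 and -0.203. When each library was corrected for GC and length, SELENOS and SEC61B were called higher in NFE2L1, 2 members where 10.6% of all genes were, and DERL3 was called lower, 1 member where 1.92% were. In NFE2L1DC the correction gave SEC61B as the 1 member higher, where 3.56% of all genes were, and CRELD2, OS9 and PDIA6 as the 3 members lower, where 1.19% were. The part of base composition in the differences between groups was not tested further.

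**Figure D5:**
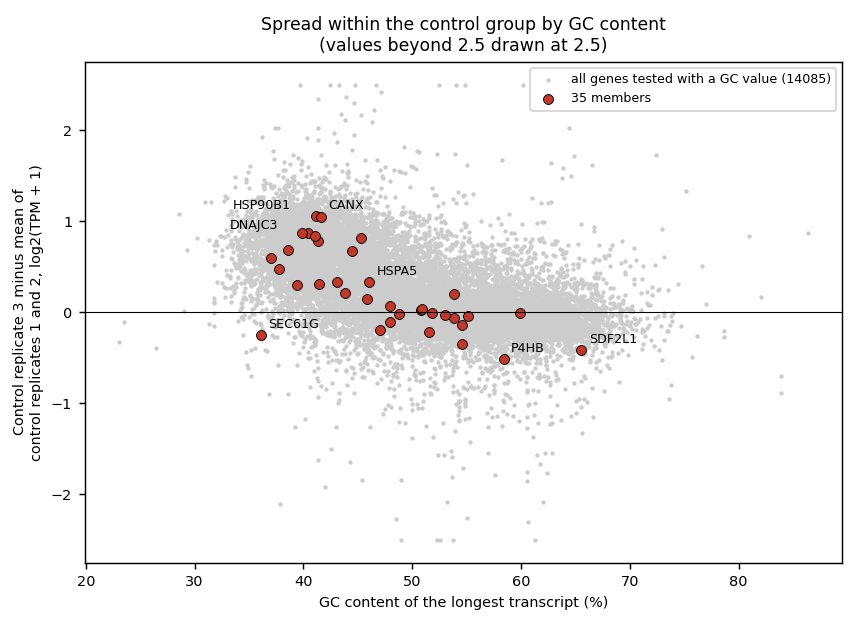
Control replicate 3 minus the mean of control replicates 1 and 2, in log2(TPM + 1), against the GC content of the longest transcript, for 14085 genes (grey) and the 35 members (red). HSP90B1, CANX and DNAJC3 are among the highest members at low GC, and P4HB and SDF2L1 are the lowest at high GC.

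The differences between the 2 lines come from the 6 overexpressing libraries, while the controls enter the shared estimate of the spread behind the errors and p-values. No member passed in limma, where 0.715% of all genes were higher in NFE2L1 than in NFE2L1DC and 0.0779% were lower; 5 members had an unadjusted p under 0.05 (14.3%, against 8.19% of all genes). These were HERPUD1 (log2 fold change 0.51 ± 0.17, adjusted p = 0.416), DNAJB11 (0.43 ± 0.15, 0.416), HSPA5 (0.37 ± 0.12, 0.363), SEC61G (0.29 ± 0.09, 0.355) and OS9 (0.21 ± 0.07, 0.378). No member passed without control replicate 3 either, and the adjusted p of HSPA5 was 0.151. The direction was nearly uniform. In 32 of 35 members the value was positive (91.4%), beside 63.1% of all genes, with a median of 0.14 beside 0.059, and the exceptions were DERL3, ERO1B and MANF. Under median-of-ratios scaling 25 were positive (71.4%), beside 50.2% of all genes, with a median of 0.092 beside 0.001. Leaving out 1 library gave 30 to 33 positive members (85.7% to 94.3%), beside 56.8% to 67.0% of all genes. Leaving out a control library cannot change these values.

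In 8 members all NFE2L1 libraries lay above all NFE2L1DC libraries (22.9%, against 12.4% of all genes), and in none did they lie wholly below (5.55% of all genes). The 8 were HSPA5, DNAJB11, DNAJC3, CRELD2, PDIA4, PDIA6, OS9 and SEC61G. The members share libraries and can vary together, so these counts are a description of the 6 libraries and carry no test.

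The 7 members that matched the searched form of the ER stress response element did not move as 1 group. Other spacings of the element were not searched, so other members may hold it. Their log2 fold changes for NFE2L1 against control were 0.59 for CANX, 0.38 for HSPA5, 0.10 for XBP1, 0.02 for HSP90B1, 0.00 for ERO1B, -0.16 for CALR and -0.33 for CRELD2, none of them called. For NFE2L1DC against control they were 0.41, 0.01, -0.30, -0.15, 0.01, -0.20 and -0.42 in the same gene order.

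Other genes of the ER pathways were counted from lists given by name. Of 12 genes listed for the PERK and ATF4 branch, 5 rose in NFE2L1 cells, where 7.83% of all genes did, and 1 in NFE2L1DC cells, where 2.06% did. The counts without control replicate 3 were 6 for NFE2L1, where 30.1% of all genes were higher, and 3 for NFE2L1DC, where 20.1% were. Both of these counts include the listed gene EIF2A, which is distinct from the PERK substrate EIF2S1. TRIB3, a pseudokinase induced by ATF4, averaged 114 ± 5.5 TPM in NFE2L1 and 93.2 ± 2.02 TPM in NFE2L1DC, against 49.4 ± 4.85 TPM in control libraries, and it rose in both lines (adjusted p = 8.06e-05 for NFE2L1 and 0.00127 for NFE2L1DC). EIF2S1, the translation factor that PERK phosphorylates, averaged 78.0 ± 0.96 TPM in NFE2L1 and 36.7 ± 2.83 TPM in NFE2L1DC, against 46 ± 6.09 TPM in control libraries. It rose in NFE2L1 cells against control and was also higher than in NFE2L1DC cells, with a log2 fold change of 1.07 (adjusted p = 0.00192). ASNS, asparagine synthetase, averaged 88.0 TPM in NFE2L1 and 73.4 TPM in NFE2L1DC, against 57.7 TPM in control libraries, and rose in NFE2L1 cells (adjusted p = 0.00923).

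Of 29 other ERAD genes tested, RNF5, a membrane ubiquitin ligase, was the 1 called with all libraries. It fell to 157 ± 9.01 TPM in NFE2L1 and 164 ± 10.4 TPM in NFE2L1DC cells, against 215 ± 16.0 TPM in controls. When control replicate 3 was left out, 13 of these genes were called higher in NFE2L1 and 11 in NFE2L1DC, among them RAD23B, JKAMP, RNF139 and UBE2J1 in both lines, and RNF5 remained the 1 lower gene in each. Of all genes, 30.1% were then higher and 5.69% lower in NFE2L1, and 20.1% higher and 4.34% lower in NFE2L1DC. With all libraries these shares were 7.83% and 2.57% in NFE2L1, and 2.06% and 1.54% in NFE2L1DC. They apply to the lists that follow as well. Of 12 other disulfide isomerases and oxidases, QSOX1 fell in both lines, to 69.9 TPM in NFE2L1 and 61.4 TPM in NFE2L1DC, against 91.9 TPM in control libraries. In the fit without control replicate 3, 4 of these 12 were higher and 3 lower in NFE2L1, and 3 were higher and 3 lower in NFE2L1DC. Of 9 BiP cofactors and other ER chaperones, the cyclophilin PPIB fell in NFE2L1DC cells (945 ± 41.9 TPM, against 1172 ± 88.5 TPM in controls). None passed in NFE2L1 cells, where 1 had an unadjusted p under 0.05 in limma and 30.4% of all genes did. With that library left out, 2 of the 9 were higher and 1 lower in NFE2L1, and 1 was higher and 3 lower in NFE2L1DC. Of 16 translocon and signal peptide genes, SRPRB, SSR3 and SRPRA rose in NFE2L1 cells. None passed in NFE2L1DC cells with all libraries, where 6 had an unadjusted p under 0.05 in limma and 21.7% of all genes did. With control replicate 3 left out, 8 of the 16 were higher and 1 lower in NFE2L1, and in NFE2L1DC SSR3, TRAM1, SERP1 and SPCS3 were higher (4) and SSR4 and SPCS1 lower (2). Of 13 other regulators of the response, BFAR rose in NFE2L1 cells, and CREB3L4, a membrane-bound transcription factor, fell in both lines, to 15.7 TPM in NFE2L1 and 16.6 TPM in NFE2L1DC, against 22.9 TPM in controls. In the fit with control replicates 1 and 2 alone, 5 of the 13 were higher and 2 lower in NFE2L1, and 5 were higher and 1 lower in NFE2L1DC. Between the 2 lines, EIF2S1 was the 1 gene of these lists that passed.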

How the data were processed

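The deposited table holds TPM values, calculated by the authors per library; per the submitters' processing notes, CASAVA and the GRCh38 build were used, and the aligner, quantifier, annotation and strandedness are not given in the sources here. Column sums were 999983.0 to 999991.7, and there were no counts, so no counting interval can be given. Coordinates, GC content and lengths came from GENCODE release 29, in which 57836 identifiers matched.

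A test on counts had been foreseen for a table of counts; for TPM, limma 3.58.1 in R 4.3.3 was run with a variance trend on log2(TPM + 1), over 14118 genes with at least 1 TPM in at least 3 of 9 libraries. All 9 libraries were fitted together with a mean for each group (prior degrees of freedom 3.34), and the 3 contrasts were tested 2-sided with Benjamini-Hochberg adjustment over all genes; genes at an adjusted p under 0.05 are called changed. The log2(TPM + 1) scale of the fold changes understates changes of low genes; folds are ratios of mean TPM. The procedure was also run on simulated data, with noise drawn separately for each gene and library. That simulation held no shift across a whole library, so it does not cover the difference of control replicate 3 from its fellow controls. The labels do not say whether replicates were separate cultures, so p-values measure the spread between these libraries, which may be technical. Correlations of deviations gave no sign that the same replicate numbers paired libraries of different groups, though with 3 libraries per group they cannot exclude it.

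The members and lists were chosen with earlier results of these data known. Values in every library are given for members changed in any contrast, the stress sensors and XBP1, HSPA5, and members without overlap whose log2 fold change reached 0.58 in size; other members so shown were chosen after their values were seen. In other lists, up to 3 changed genes per list and contrast are named by smallest p. Alternatives were another pseudocount (0.1), other filters, median-of-ratios scaling, a correction for GC and length, a replicate block, the 6 libraries compared, no variance trend, and leaving out each library. Promoters are from RefSeq, GRCh38.p14.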

Additional observations from a re-analysis of the deposited data

How the results depend on the processing

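No member called in the full comparison reversed its direction in any alternative, and the cause of the shifts below was not tested except where the setting itself uses fewer libraries. For NFE2L1 against control, the count of members higher (1) was 0 under median-of-ratios scaling, 2 with the GC and length correction, 3 with the replicate block and that correction, and 0 with control replicate 3 as the only control, a setting added after seeing the data. The count lower (1) was 0 with no filter and 0 with control replicate 3 alone. All genes changed numbered 1468, against 947 with no filter, 872 with the replicate block, 848 with only the 6 libraries compared and 307 with control replicate 3 alone. For NFE2L1DC against control, members higher (0) became 1 with the GC and length correction; members lower (1) became 3 with that correction and 0 under median-of-ratios scaling, the replicate block, the replicate block with the correction, the 6 libraries compared, no variance trend, and control replicate 3 alone. All genes changed numbered 509, against 293, 198, 101, 313 and 68 under median-of-ratios scaling, the replicate block, the 6 libraries, no variance trend and control replicate 3 alone. Between the lines 112 genes changed, against 73 under median-of-ratios scaling and 58 with the replicate block; members called stayed at 0.

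Leaving out each library gave 0 to 12 members higher, 0 to 5 lower and 510 to 5055 genes changed for NFE2L1 against control. The ranges were 0 to 7, 0 to 7 and 115 to 3444 for NFE2L1DC against control, and 0 members and 49 to 147 genes between the lines. The highest counts against control came without control replicate 3. The replicate block changed the calls of SELENOS and DERL3 in neither case and lost that of OS9 (adjusted p = 0.0936). Libraries with the same number had correlations of deviations between -0.189 and 0.109 over 9 pairs, against -0.182 to 0.276 over 18 pairs with other numbers, so the numbers were not treated as pairs. Depth is unknown, and for members near 1 TPM, such as ERO1B and EDEM3, the pseudocount shrinks differences.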

Other observations

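Genes next to these pathways were measured as well. Of 17 oligosaccharyltransferase and glycan quality control genes, STT3A, a catalytic subunit, rose in NFE2L1 cells to 170 ± 16.5 TPM, with NFE2L1DC at 134 ± 13.3 TPM, against 123 ± 16.8 TPM in control libraries (SD, n = 3 libraries each). OST4, a small subunit of the same enzyme, fell in NFE2L1DC cells to 323 ± 43.2 TPM, against 441 ± 25.0 TPM in controls, and was at 401 ± 13.4 TPM in NFE2L1 cells. Of 15 KDEL receptor and vesicle coat genes, SEC23B of the COPII coat rose in NFE2L1 cells to 67.9 ± 0.69 TPM, against 52.0 ± 4.01 TPM in controls, and was at 59.9 ± 6.97 TPM in NFE2L1DC cells. Of 13 ER calcium and ER-phagy genes, the phagy receptor CALCOCO1 fell in NFE2L1 cells to 15.1 ± 1.63 TPM, against 21.1 ± 0.4 TPM in controls, and was at 15.7 ± 1.13 TPM in NFE2L1DC cells (adjusted p = 0.0836 in limma, not called). None of the 15 vesicle genes and none of the 13 calcium and phagy genes passed in NFE2L1DC against control with all libraries. In limma, 1 of the vesicle genes and 3 of the calcium and phagy genes had an unadjusted p under 0.05, where 21.7% of all genes did. Without control replicate 3 more genes passed. Of the glycan genes, 7 were higher and 1 lower in NFE2L1, and 5 were higher and 1 lower in NFE2L1DC. Of the vesicle genes, 8 were higher in NFE2L1 and 4 in NFE2L1DC (SEC23A, SEC24A, SEC24B and SEC31A). Of the calcium and phagy genes, 4 were higher and 1 lower in NFE2L1, and in NFE2L1DC ATL3 and ITPR1 were higher (2) and CALCOCO1 lower (1, adjusted p = 0.0396). Of all genes, 30.1% were higher and 5.69% lower in NFE2L1 under that setting, and 20.1% were higher and 4.34% lower in NFE2L1DC.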
